A study of Mus musculus with 2 samples.

Results

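The motile cilium genes described here are 69 of the 22180 genes that could be named on the arrays. They were chosen by symbol: 58 begin with Dnah, Dnai, Cfap, Rsph, Tekt or Drc followed by a number, and 11 were listed one by one, namely Foxj1, Tppp3, Ccdc40, Ccdc65, Hydin, Spag6, Spag16, Mcidas, Gmnc, Lrrc6 and Zmynd10. A 12th listed gene, Ccdc39, is named alone by no probe set used and has no value here. Total RNA came from nasal mucosa of C57BL/6 mice of 4 to 6 weeks at day 3, per the labels, with 1 Affymetrix Mouse Gene 2.0 ST array for papain, a plant cysteine protease, and 1 for phosphate-buffered saline (PBS). According to the design text, 4 samples were pooled into a specimen. Neither group carries a genetic alteration in the labels. With 1 array per group there was no spread between animals to measure, no test could be run, and every difference below compares 2 pools of tissue. Values are log2 signals, and every log2 ratio is papain minus PBS, so a ratio of -0.58 is a signal 1.5-fold lower in the papain array.

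Motile cilia beat to carry mucus along the respiratory epithelium of the nose. Their core, the axoneme, is a ring of doublet microtubules around a central pair. Outer and inner dynein arms, large motor complexes on the doublets, slide one doublet past the next. The nexin-dynein regulatory complex and the radial spokes coordinate the motors, and tektins and other inner proteins stabilise the doublet wall. Gmnc and Mcidas start the multiciliated cell programme, and Foxj1 and the RFX transcription factors switch on the axonemal genes. Cilia of olfactory neurons also line the nose, but in mammals these are sensory and lack the motor complexes. In bulk tissue, fewer ciliated cells and less ciliary RNA per cell cannot be told apart.

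Most motile cilium genes had a lower signal in the papain array, by a small amount. Of the 69 genes, 60 had a ratio below 0, which is 87.0%, against 54.4% of all named genes and 64.1% of the named genes above the floor. The floor is the median signal of all named genes, 6.29, and 61 of the 69 reached it in at least 1 array. The median ratio of the 69 genes was -0.36, a signal 1.28-fold lower after papain, while the median over all named genes was -0.03. Above the floor, the median was -0.38 for the members and -0.10 for all named genes. The lower quartile of the 69 genes was -0.48 and the upper -0.18, an interquartile range of 0.31. It was 0.42 over all named genes and 0.36 over those above the floor. In all, 9 of the 69 genes (13%) were lower after papain by 1.5-fold or more, against 4.34% of all named genes. At least 1.5-fold higher were 2 (2.9%), against 5.38%. Among genes above the floor, 14.8% of the members were lower by as much, against 4.35% of named genes. The share higher there was 3.28% of the members, about the same as the 3.41% of named genes. No member reached 2-fold in either direction, against 0.73% of named genes lower and 1.83% higher.

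The size of these ratios is close to the error of a probe set. Among 1082 genes with several probe sets, the SD of 1 probe set's ratio was 0.32, and the SD of the ratio over the 69 members was also 0.32. Over the 261 genes with several probe sets above the floor, the probe set SD was 0.28. A ratio of -0.36 in a single member is thus little more than 1 such SD. After a loess curve removed the trend of the ratio with signal, the members' median was -0.29 and 57 were below 0, which is 82.6% against 49.3% of all named genes. Of the 69, 2 (2.9%) were then at least 1.5-fold lower, against 3.86% of all named genes, so the larger share past 1.5-fold given above was not seen after loess.

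**Figure D1:**
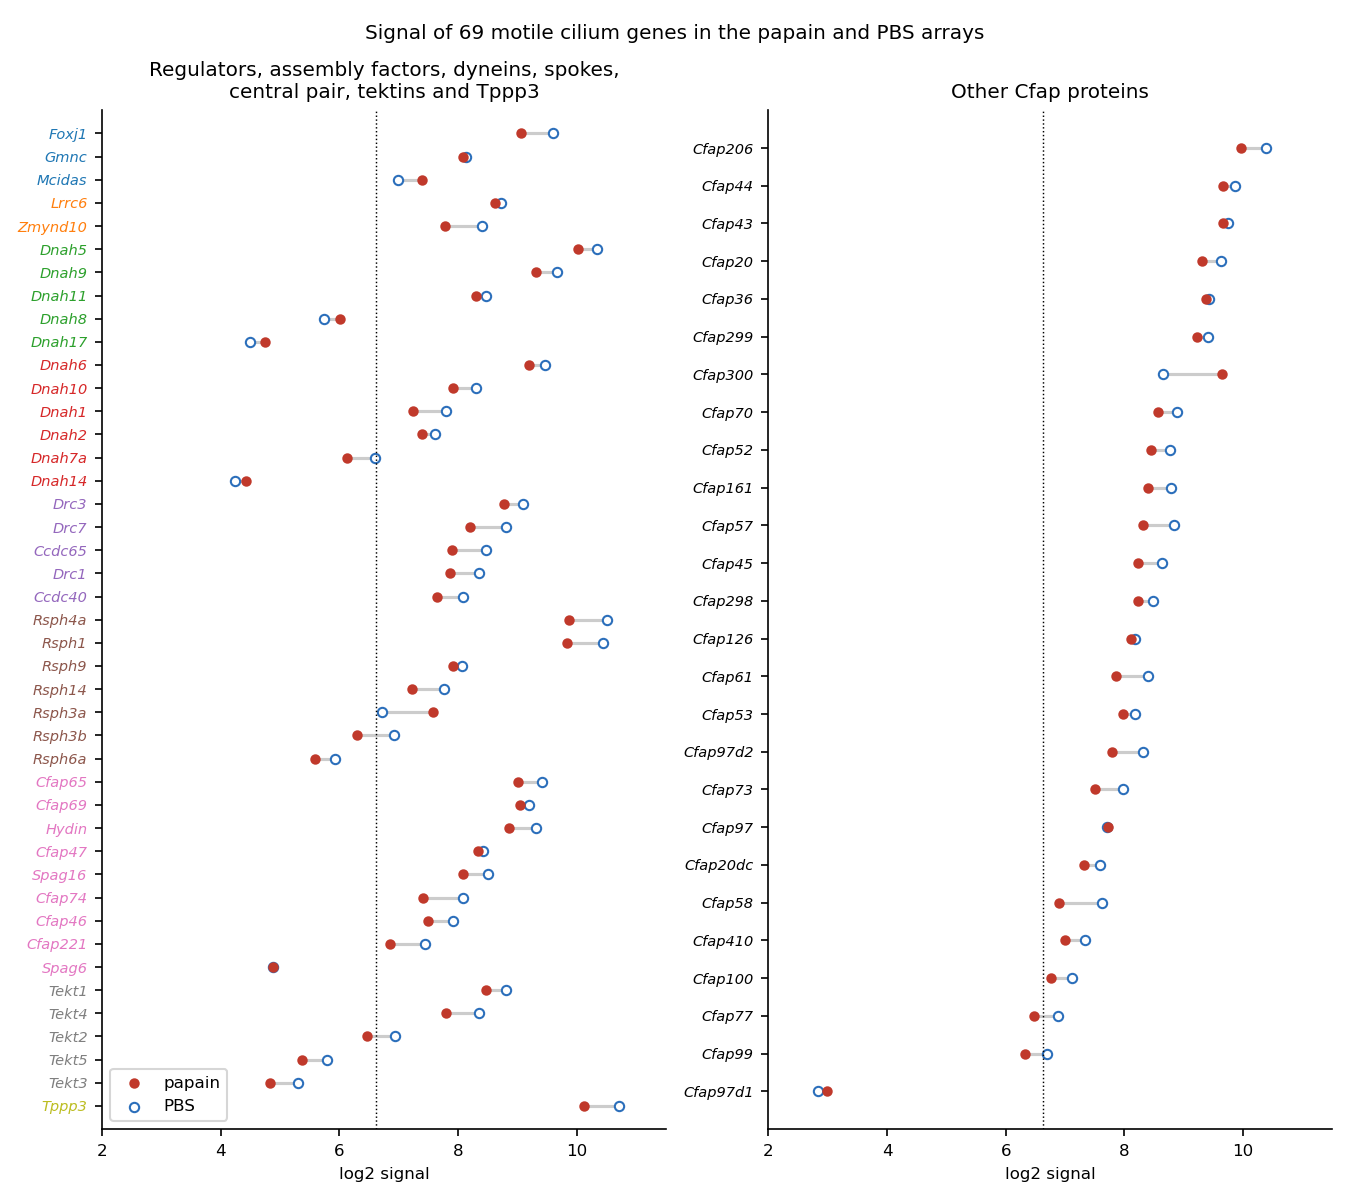
Log2 signal (horizontal axis) of each of the 69 genes, with papain as filled red points and PBS as open blue points, 1 array each. Gene names on the left panel are coloured by role, and the dotted line is the clear-signal level of 6.62. The red point lies left of the blue one for 60 of the 69 genes, and the longest bars that run the other way are those of Cfap300 and Rsph3a.

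Signals were strong enough for most of these genes to be read. The median member had a log2 signal of 7.91 after papain and 8.36 after PBS. For comparison, 35 genes of other tissues, such as those for albumin and rhodopsin-pathway proteins, had medians of 5.40 after papain and 5.02 after PBS, and 6.62, the 95 percentile of their values over both arrays, is used below as the level of a clear signal. Of the members, 56 were above 6.62 in both arrays. The brightest was Tppp3, a tubulin-binding protein typical of ciliated cells, at 10.12 after papain and 10.71 after PBS. Next came Rsph4a, Dnah5, Cfap206 and Rsph1, all with mean signals above 10. Split by mean signal into sets of 23 genes, the dimmest set had a median of -0.36, the middle set -0.42 and the brightest set -0.32, and Spearman's rho between ratio and mean signal over the 69 genes, which share the same 2 arrays, was -0.07.

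**Figure D2:**
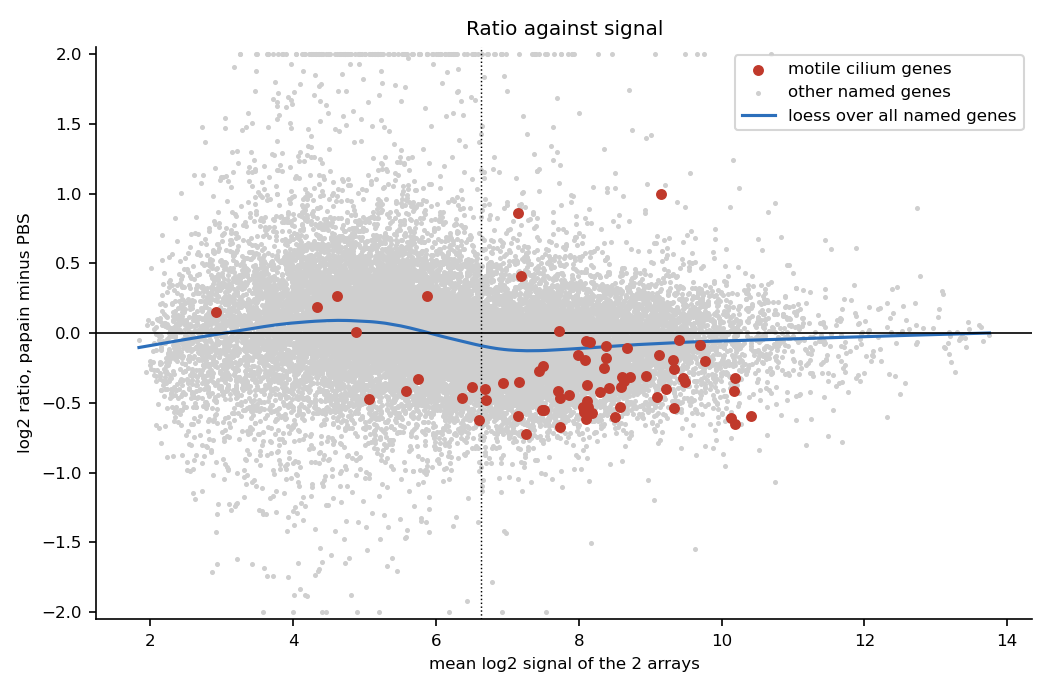
Log2 ratio of papain minus PBS (vertical axis) against the mean log2 signal of the 2 arrays (horizontal axis), for the motile cilium genes in red and the other named genes in grey, with ratios beyond the axis drawn at its edge. The blue line is the loess curve over all named genes and the dotted line the clear-signal level. Most red points lie below the blue line at signals from 6.3 to 10.4.

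The 3 transcriptional regulators of the programme had differing ratios. Foxj1, the forkhead factor that drives axonemal genes, had a log2 signal of 9.07 after papain and 9.60 after PBS, a ratio of -0.54. Gmnc, which acts at the start of multiciliogenesis, had 8.08 after papain and 8.13 after PBS, a ratio of -0.06 that turned positive after loess. Mcidas, its partner, had 7.40 after papain and 6.99 after PBS, a ratio of 0.41. Mcidas lies beside Ccno and Cdc20b, both genes of centriole amplification, and both neighbours also had ratios above 0. Cdc20b had 6.60 after papain and 6.12 after PBS, and Ccno had 6.32 after papain and 6.14 after PBS, with all 4 of these signals under the clear level.

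The wider list of multiciliogenesis and centriole amplification genes, which holds no member, showed no common direction. Of its 21 measured genes, 10 had ratios below 0 and 11 above, with a median of 0.04. Plk4, the kinase that starts centriole duplication, was 1.64-fold higher in the papain array at 7.99 after papain against 7.28 after PBS and was the 1 gene of the list past 1.5-fold. Stil, its centriole partner, had a ratio of 0.57, and Deup1, a deuterosome protein specific to multiciliated cells, had 0.36. Plk4 and Stil also serve dividing cells. Rfx3 and Rfx2, the RFX factors named most often with motile cilia, had -0.04 and -0.23, and Ccdc78, another deuterosome protein, had -0.46. The difference between this list and the axonemal genes was not tested.

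Outer dynein arm heavy chain genes were lower where their signal was clear. Dnah5, an outer arm heavy chain and a common locus of human primary ciliary dyskinesia, had a log2 signal of 10.02 after papain and 10.34 after PBS, a ratio of -0.32. Its outer arm partner Dnah9 had 9.31 after papain and 9.66 after PBS, a ratio of -0.35, and Dnah11 had 8.30 after papain and 8.47 after PBS, a ratio of -0.18. The remaining outer arm chains, Dnah8 and Dnah17, best known from sperm flagella, had ratios of 0.26 each, but their signals, from 4.49 to 6.01, were not clear in either array.

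Among the inner arm heavy chains, 5 of 6 had ratios below 0 and none passed 1.5-fold. Dnah1 was the lowest with 7.24 after papain and 7.80 after PBS, a ratio of -0.55. Dnah10 had a ratio of -0.37, Dnah6 -0.25 and Dnah2 -0.23, and the mean of Dnah2 with its dimmer probe set was -0.13. Dnah7a had 6.13 after papain and 6.59 after PBS, a ratio of -0.47, but a brighter probe set that it shares with its near-identical copies Dnah7b and Dnah7c had 7.71 after papain and 7.68 after PBS, a ratio of 0.03. The value of Dnah7a alone is therefore uncertain. Dnah14, grouped here by its family, read 4.42 after papain and 4.24 after PBS, a ratio of 0.18.

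Dnaic1 and Dnaic2, dynein intermediate chains, carry older symbols on this platform and fall outside the symbol rule. Dnaic1, for which RefSeq lists the synonym Dnai1, had 8.20 after papain and 8.67 after PBS, a ratio of -0.47. Dnaic2, listed with the synonym Dnai2, also had -0.47. The light intermediate chain gene Dnali1 had 9.37 after papain and 9.85 after PBS, a ratio of -0.48. These 3 chains were lower by more than any of the outer arm heavy chains. Wdr63 and Wdr78, also dynein intermediate chains outside the rule, were nearer to level. Wdr63 had 8.72 after papain and 8.82 after PBS, a ratio of -0.10. Wdr78 had 9.38 after papain and 9.55 after PBS, a ratio of -0.17.

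Factors that build dynein arms in the cytoplasm before they enter the cilium differed widely. Zmynd10 was 1.54-fold lower in the papain array, at 7.79 after papain against 8.41 after PBS. Its binding partner Lrrc6 had 8.61 after papain and 8.72 after PBS, a ratio of only -0.11. Of 11 further assembly genes measured, 9 had ratios below 0, with a median of -0.38, and 1 passed 1.5-fold. That gene was Dnaaf5, with 7.86 after papain and 8.63 after PBS, a ratio of -0.77, while Dnaaf3 had -0.53, Dnaaf1 -0.38 and Dnaaf4 -0.15.

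The opposite extreme was Cfap300, also a cytoplasmic dynein assembly factor, which had the highest ratio of all 69 genes. It had 9.65 after papain and 8.66 after PBS and was 1.99-fold higher, with 98.2% of all named genes at a lower ratio. Both signals were clear, but they come from a single probe set, so nothing on the array checks them. Its neighbours in RefSeq order did not share the size of this ratio, with Yap1 at -0.30 on one side and Cep126, a ciliary base protein, at 0.03 on the other. Cfap298, another assembly factor of the same naming series, had -0.25.

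Members of the nexin-dynein regulatory complex and of the protein ruler that spaces the axonemal repeat were lower without exception. All 5 measured members had ratios below 0, with a median of -0.48. Genes of these structures that the symbol rule left out are not counted here. Drc7 had 8.20 after papain and 8.80 after PBS, 1.52-fold lower. Ccdc65, the Drc2 subunit, had 7.90 after papain and 8.47 after PBS, a ratio of -0.57, and the core subunit Drc1 had 7.87 after papain and 8.36 after PBS, a ratio of -0.48. Ccdc40, a ruler protein, had -0.45 and Drc3 had -0.31.

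Radial spoke genes had a median of -0.55 over 7 genes, the lowest among the roles with several genes as reported but not after loess, where it was -0.42 against -0.46 for the tektins. They also held a member far above 0. Rsph4a, a spoke head protein of respiratory cilia, had 9.86 after papain and 10.51 after PBS, 1.57-fold lower. Rsph1, another head protein, had 9.83 after papain and 10.44 after PBS, 1.52-fold lower. Rsph14 had 7.21 after papain and 7.76 after PBS, a ratio of -0.55, and Rsph9, also a head protein, had 7.91 after papain and 8.06 after PBS, a ratio of only -0.15. Rsph6a, the relative of Rsph4a known from sperm, was not clear in either array, at 5.59 after papain and 5.92 after PBS.

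The spoke stalk genes Rsph3a and Rsph3b went opposite ways. Rsph3a had 7.58 after papain and 6.72 after PBS and was 1.81-fold higher, while Rsph3b had 6.29 after papain and 6.91 after PBS and was 1.54-fold lower. They are closely related copies, both on chromosome 17, and both values are uncertain. Whether their probe sets share signal was not tested. A dimmer probe set of Rsph3a had 5.86 after papain and 5.78 after PBS, a ratio of 0.08, and the mean of both its probe sets gave 0.47.

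Central pair genes were lower in 8 of 9 cases, with a median of -0.41. Hydin, a very large central pair protein whose loss gives stiff cilia, had 8.86 after papain and 9.32 after PBS, a ratio of -0.46. A dimmer probe set of Hydin, under the clear level, had 5.09 after papain and 5.05 after PBS, a ratio of 0.04, and the mean of both gave -0.21. Cfap74 had 7.40 after papain and 8.08 after PBS, 1.60-fold lower, and Cfap221 had 6.86 after papain and 7.45 after PBS, 1.51-fold lower. Spag16 had -0.42, Cfap46 -0.41, Cfap65 -0.40, Cfap69 -0.16 and Cfap47 -0.09, the last of which turned positive after loess. Spag6 had 4.88 after papain and 4.87 after PBS, neither clear, whereas its mouse relative Spag6l, outside the symbol rule, had 8.16 after papain and 8.72 after PBS, a ratio of -0.56.

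All 5 tektins, filament proteins inside the doublet wall, had ratios below 0, between -0.57 and -0.34. Tekt4 had 7.79 after papain and 8.36 after PBS, a ratio of -0.57, and Tekt1 had 8.46 after papain and 8.81 after PBS, a ratio of -0.34. Tekt2 had -0.48 with a papain signal of 6.46 just under the clear level. Tekt3 and Tekt5 were under that level in both arrays. The 7 Cfap proteins known from doublet lumens, Cfap20, Cfap45, Cfap52, Cfap53, Cfap77, Cfap126 and Cfap161, also all had ratios below 0, with a median of -0.32 and a range from -0.40 for Cfap77 to -0.06 for Cfap126, which turned positive after loess.

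**Figure D3:**
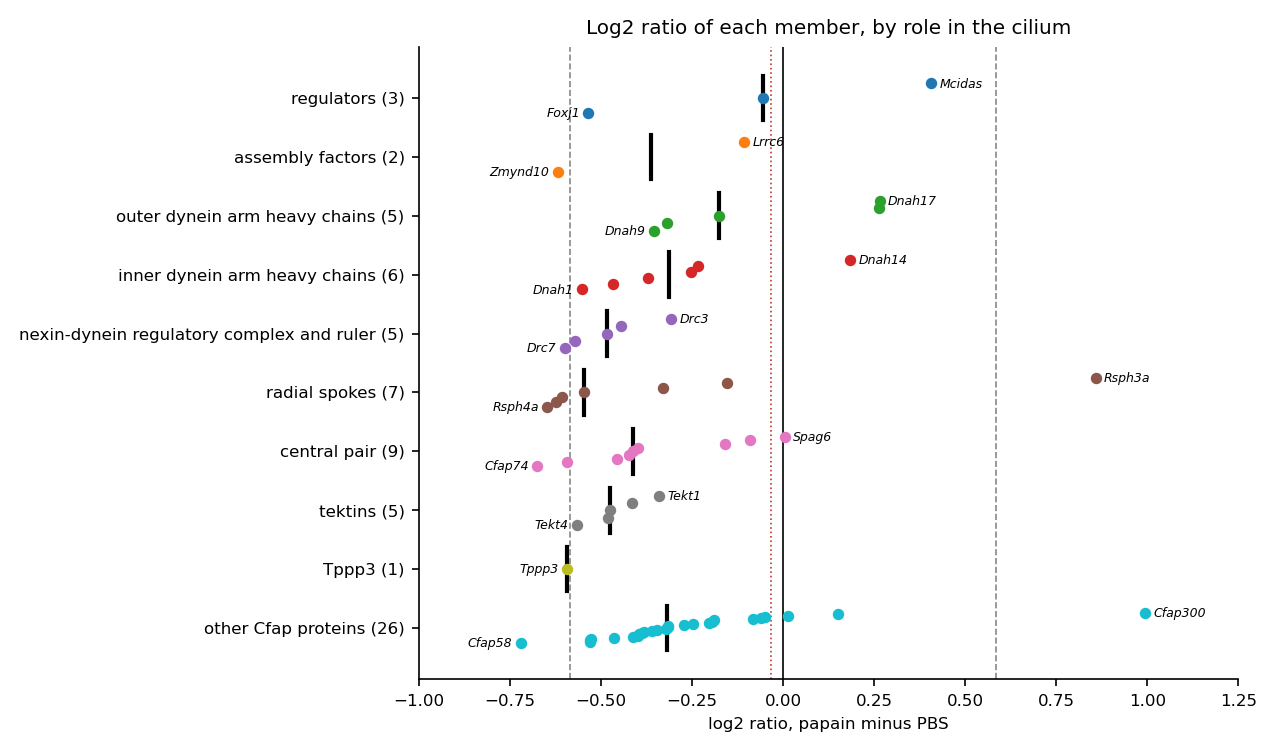
Log2 ratio of papain minus PBS (horizontal axis) of each gene, by role, with the number of genes in brackets, the black bar at the median of each role, and the lowest and highest gene of each role named. Dashed lines mark 1.5-fold and the dotted red line the median of all named genes, -0.03. Radial spoke, regulatory complex, tektin and central pair medians lie between -0.55 and -0.41, and Cfap300 and Rsph3a lie beyond the right dashed line.

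The remaining Cfap genes, 26 with those of the doublet lumen and the assembly factors counted in, had a median of -0.32, with 23 below 0. Cfap58, a coiled-coil protein, had the lowest ratio of all 69 genes, with 6.91 after papain and 7.63 after PBS, 1.65-fold lower. Cfap61 and Cfap206, which anchor radial spokes in ciliates and algae, had ratios of -0.53 and -0.41, the second at 9.97 after papain and 10.38 after PBS. Cfap57, an inner arm adaptor in Chlamydomonas, had -0.53, and Cfap73 and Cfap100, partners in an inner arm docking complex described in Chlamydomonas, had -0.47 and -0.36. Cfap70, of the outer arm, had -0.32. Cfap43 and Cfap44, which tether an inner arm dynein in Chlamydomonas and Tetrahymena, had clear signals above 9.6 in both arrays and ratios of only -0.08 and -0.20. Cfap97d2 had -0.53, Cfap99 -0.38, Cfap410 -0.35, Cfap20dc -0.27, Cfap299 -0.19, Cfap97 0.01 and Cfap36 -0.05, which turned positive after loess. Cfap97d1, known from sperm, read 2.99 after papain and 2.84 after PBS and was the dimmest member.

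Some promoters of these genes held an X-box, a feature that the symbol rule did not use. RefSeq promoters, 250 bases before to 50 after a start site on build GRCm38.p6, were held for 59 of the 69 genes, in 67 windows. The X-box, the palindromic motif that RFX factors bind, was searched on both strands with a spacer of 0 to 3 bases. It was present in 11 of the 67 windows, 16.4%, against 1.5% of the 32784 promoters of other genes. The shorter motif GTTGCC, which overlaps many X-boxes, was in 37.3% of the windows against 12.5%, and the forkhead core TGTTTAC in 5.97% against 3.65%. A match is a run of letters and not a measured binding site. The X-box matches are shown because they let a reader see how alike the sites of 10 genes are. Capitals mark the X-box, with 5 bases of context on each side, in the direction of the gene and in order of ratio, lowest first.
Cfap58 (chr19:47937648-47937670, + strand): tggcgGTTGCCAGGCGACcgaag
Rsph3b (chr17:6948330-6948352, - strand): ctcggGTTGCTCGGCAACcgatg
Tekt2 (chr4:126325700-126325722, - strand): gggcgGTTGCTCGGCAACcagag
Hydin (chr8:110266951-110266974, + strand): ctgcgGTTGCTGTGGCAACagatg
Spag16 (chr1:69826862-69826885, + strand): aacgcGTTGCCGTAGTAACtgcgg
Cfap45 (chr1:172521106-172521129, + strand): cttggGTTGCTATGGTAACgcgtc
Cfap99 (chr5:34288625-34288647, + strand): gcggcGTTGCTAGGTGACggcgc
Cfap20dc (chr14:8666374-8666397, - strand): cctcaGTTGCCTGGGCAACggctc
Cfap298 (chr16:90934899-90934923, - strand): tgactGTTGCCCCTGGCAACagcca
Cfap298 (chr16:90935019-90935042, - strand): ttttgGTTGCCCGGGCAACagcta
Cfap44 (chr16:44394767-44394790, + strand): gggacGTTGCTATGGCAACcgcag

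The 10 genes with an X-box had ratios from -0.72 for Cfap58 to -0.20 for Cfap44, with a median of -0.41. All 10 were below 0, but so were 87.0% of all 69 members. The 49 genes without one had a median of -0.34 and ran from -0.68 for Cfap74 to 0.99 for Cfap300. The 23 genes with GTTGCC had a median of -0.41 and the 36 without it -0.32. These ranges overlap, and the differences between the medians were not tested. Foxj1, Rsph1, Rsph4a and Tppp3 are not among the 59. The windows of Cfap58 and Cfap300, the genes with the lowest and the highest ratio, are given in full, with capitals for the X-box in Cfap58 and for GGCAAC, the reverse complement of GTTGCC, in Cfap300.
Cfap58 (chr19:47937462-47937761, + strand): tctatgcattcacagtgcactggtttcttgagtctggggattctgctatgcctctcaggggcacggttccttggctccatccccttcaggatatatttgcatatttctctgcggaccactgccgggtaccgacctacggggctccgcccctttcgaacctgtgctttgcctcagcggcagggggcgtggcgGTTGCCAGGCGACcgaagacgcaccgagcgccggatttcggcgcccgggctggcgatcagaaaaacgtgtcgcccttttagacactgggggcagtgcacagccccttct
Cfap300 (chr9:8042826-8043125, - strand): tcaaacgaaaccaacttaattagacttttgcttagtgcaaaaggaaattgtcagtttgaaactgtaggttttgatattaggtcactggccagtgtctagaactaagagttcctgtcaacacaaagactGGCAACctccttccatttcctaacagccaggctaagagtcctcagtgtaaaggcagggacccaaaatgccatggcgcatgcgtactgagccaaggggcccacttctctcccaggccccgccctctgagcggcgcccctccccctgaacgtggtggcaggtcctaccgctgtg

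Genes of the same cilia that the rule left out also mostly had ratios below 0. Of 38 further axonemal and docking genes, 35 (92.1%) had ratios below 0, against 64.1% of all named genes above the floor. Their median was -0.36. At least 1.5-fold lower were 2 (5.26%), near the 4.34% of all named genes, and none was higher by as much. Ccdc151, which docks outer arms, was the lowest with 7.41 after papain and 8.05 after PBS, a ratio of -0.64. Stk33 had -0.60, Iqca -0.58 and the adenylate kinase Ak7 -0.57. Of 31 other markers of ciliated cells, 30 (96.8%) had ratios below 0. Their median was -0.41, and 3 (9.68%) were at least 1.5-fold lower, namely Tctex1d4 at -0.76, Ttll9 at -0.65 and Dnajb13 at -0.61. Some bright markers were nearly level. Sntn, a protein of the ciliary tip, had 11.03 after papain and 11.10 after PBS, a ratio of -0.06. Cdhr3, by contrast, had 10.68 after papain and 11.16 after PBS, a ratio of -0.48. These lists and the members come from the same 2 arrays and give no independent replicate of each other.

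Genes shared by motile and sensory cilia, and genes of olfactory sensory cilia, had medians nearer to 0. The 31 intraflagellar transport genes, whose products carry cargo along all cilia, had a median of -0.20, with 21 (67.7%) below 0. Of these, 1 (3.23%), Wdr34 at -0.59, was at least 1.5-fold lower, against 4.34% of all named genes. The 20 BBSome and transition zone genes had -0.19, with 14 (70.0%) below 0 and Tctn3 lowest at -0.62. The shares below 0 in these 2 lists were near the 64.1% of all named genes above the floor. The 9 genes of olfactory cilium transduction, which belong to sensory cilia, had -0.28, with none past 1.5-fold. Of these 9 genes, 8 (88.9%) were below 0, a share like the 87.0% of the 69 members. Whether these medians differ from that of the motile cilium genes was not tested.

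**Figure D4:**
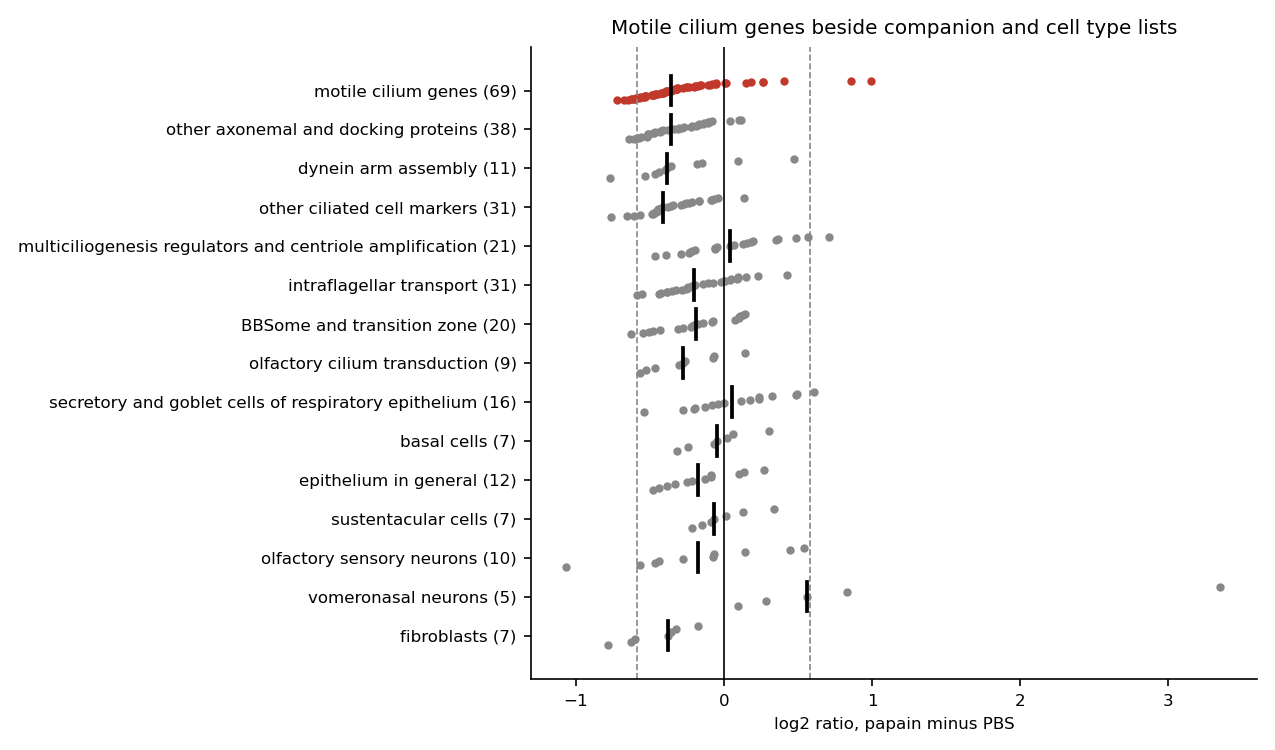
Log2 ratio of papain minus PBS (horizontal axis) of each gene, for the motile cilium genes in red and for companion and cell type lists in grey, with the number of measured genes in brackets and black bars at the medians. Dashed lines mark 1.5-fold. The medians of the 4 lists of axonemal, assembly and ciliated cell genes at the top lie between -0.41 and -0.36, and vomeronasal neuron genes lie furthest right with a median of 0.56.

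Markers of other cells moved in the same pair of arrays, and their part in the ratios of the cilium genes was not tested. The summed linear signal of the 69 members was 22680 after papain and 28470 after PBS, a ratio of 0.80, against 0.97 for all named genes. All 10 measured markers in the ciliated cell list were below 0, 6 of them members, and their summed signal was 8050 after papain and 10113 after PBS. Secretory and goblet cell markers had 7 of 16 below 0, with a median of 0.06 and summed signals of 46759 after papain and 46927 after PBS. Basal cell markers had 4 of 7 below 0, with a median of -0.05 that turned positive after loess, and summed to 4153 after papain and 4302 after PBS. General epithelial genes had 9 of 12 below 0, with a median of -0.17 and sums of 8132 after papain and 9032 after PBS. Sustentacular cell markers had 4 of 7 below 0, with a median of -0.07 and sums of 22826 after papain and 23172 after PBS. Olfactory neuron markers had 7 of 10 below 0, with a median of -0.18 and sums of 10083 after papain and 13337 after PBS. Vomeronasal neuron markers had 0 of 5 below 0, with a median of 0.56 and sums of 3148 after papain and 2404 after PBS. Fibroblast markers had 7 of 7 below 0, with sums of 12280 after papain and 17644 after PBS. The fibroblast median of -0.38 was about as low as that of the cilium genes, and 3 of the 7 were at least 1.5-fold lower. No list had a defining marker at 0, since log2 signals on these arrays do not reach it, but some markers were not clear. Scgb1a1, Scgb3a2 and Tff3 of the secretory list lay under the medians of the genes of other tissues in both arrays. The ciliated marker Tubb4b, at 5.76 after papain and 6.21 after PBS, was under the clear level. So were the vomeronasal markers Trpc2 and Calr4 after PBS, at 6.21 and 4.59. Germ cell genes had a median signal of 4.87 after papain and 4.77 after PBS, under the clear level, and a median ratio of -0.15 with 8 of 14 below 0. The 3 with clear signals were all below 0. Odf1 had 10.48 after papain and 10.91 after PBS, Spata18 had 10.46 after papain and 10.80 after PBS, and Odf2 had 7.31 after papain and 7.43 after PBS.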

How the data were processed

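Per the file headers and labels, the deposited table holds 1 value per transcript cluster for each of 2 arrays. The log2 scale of the values the authors deposited was read from the values themselves. The submitters' processing notes name Transcriptome Analysis Console 4.0, without the background correction, summarisation or normalization, so a difference in total RNA between the pools may have been scaled away. Array medians were 5.70 for papain and 5.64 for PBS.

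Of 41345 clusters, 23521 carried exactly 1 symbol in the platform annotation. The brightest cluster of a gene by mean signal was used, 22180 genes in all. The 69 members had 74 clusters, and 64 had a single one. All 69 had the same symbol in RefSeq. Genes were counted at 1.5-fold, a log2 ratio of 0.58, and at 2-fold. The number of arrays limits the precision, and no test was possible.

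The members, the companion and marker lists and the thresholds were chosen with earlier results of these data known. Genes named were the individually listed members, the extremes of each role, the brightest members and, in the other lists, those with large ratios. Choices made after the values were seen were further genes such as Cep126, Yap1, Sntn and Cdhr3, the assignment of Cfap genes to the central pair and the doublet lumen, the exact letters of the motifs, the added motif GTTGCC, and which promoter sequences are shown. The X-box sites of 10 genes and the Cfap300 window replace the planned windows of Foxj1, for which no promoter was used here, and of the members with the lowest ratios, of which only Cfap58 is shown in full. Promoters are those of RefSeq, matched by gene ID. Alternatives were quantile normalization, a median ratio of 0, loess with a span of 0.3, averaged clusters, the brightest cluster in PBS, other thresholds, floors and memberships. Counting and scaling steps were tested on simulated data. Tables were made in Python 3.11.15 with pandas 2.3.3 and numpy 2.4.6, correlations with scipy 1.17.1, curves with statsmodels 0.14.6 and plots with matplotlib 3.10.9.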

Additional observations from a re-analysis of the deposited data

How the results depend on the processing

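The members' median log2 ratio stayed below 0 under all 12 alternatives tried, from -0.38 for the 61 members above the floor to -0.29 after loess, and the number of members below 0 ranged from 57 after loess to 61 after quantile normalization. Counts past a threshold were less stable. The count of members at least 1.5-fold lower, 9 as reported, was 6 after quantile normalization (8.7% against 4.45% of all named genes), 5 with the median ratio set to 0 (7.25% against 3.61%) and 2 after loess (2.9% against 3.86%, below the background). At a log2 threshold of 0.32, about the SD of 1 probe set's ratio, 39 were lower. The share of all named genes past that threshold was not counted, so the 39 cannot be set against a background share. The lower quartile of all named genes, -0.24, fell short of the threshold, which limits that share but does not give it. At 2-fold, 0 members were lower, against 0.73% of all named genes. The 2 higher members became 0 at 2-fold and 1 without Rsph3a, Rsph3b and Dnah7a, a setting chosen after seeing the data, as was adding Dnaic1 and Dnaic2. Most of the 9 lay close to the 1.5-fold line, so a small shift of all ratios changes the count. The ratios of Cfap36, Cfap47, Cfap126, Gmnc and Spag6 changed sign in at least 1 scaling or averaging, and that of Rsph3a was 0.47 when its probe sets were averaged. No paired analysis was possible because each group is 1 array. Signals under 6.62, which 13 of the 69 members had in at least 1 array, give ratios of uncertain size.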
